A study of Mus musculus with 2 samples.

Results

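The microRNA genes of the miR-17-92 and miR-106b-25 clusters were followed in the heart of 14 day old mice. The members were 9 genes matched by name in the GENCODE M21 annotation, out of 2202 microRNA genes in the deposited tables. Of these, 6 belong to the miR-17-92 cluster (Mir17, Mir18, Mir19a, Mir20a, Mir19b-1 and Mir92-1) and 3 to the miR-106b-25 cluster (Mir106b, Mir93 and Mir25). The study sequenced RNA of under 30 bases from the heart of untreated female F1 hybrids of the cross B6CASTF1/J in 2 biological replicates. They form 1 group, so the study sets no treatment or genotype against another. Replicate 1 is described as coming from 3 females and replicate 2 from a single one, and no label says if the 3 were pooled. A free-text label speaks of months where the age field, which was used here, says days.

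Both clusters are made as long primary transcripts from which the enzyme Drosha cuts a row of hairpins, and Dicer then cuts each hairpin into short mature arms. A mature arm finds messenger RNAs mainly through its seed, the bases 2 to 8 counted from its 5′ end. The clusters are known for supporting cell division and survival, with Cdkn1a and Bcl2l11 among their established targets, and miR-17-92 is needed for normal development of the mouse heart and lung and supports division of cardiomyocytes around birth. A further copy of the cluster lies on chromosome X. In a bulk tissue, fewer cells of a type and less RNA per cell cannot be told apart.

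The mature arm usually taken as the active one of each member is printed from RefSeq (GRCm38.p6), which had an entry for all 9 members, with the seed in capitals. They are shown because the members fall into 4 seed families that cut across the clusters.
mmu-miR-17-5p (Mir17): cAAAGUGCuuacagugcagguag
mmu-miR-20a-5p (Mir20a): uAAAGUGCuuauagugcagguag
mmu-miR-106b-5p (Mir106b): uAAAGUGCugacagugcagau
mmu-miR-93-5p (Mir93): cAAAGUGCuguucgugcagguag
mmu-miR-18a-5p (Mir18): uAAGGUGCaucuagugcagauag
mmu-miR-19a-3p (Mir19a): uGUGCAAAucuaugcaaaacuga
mmu-miR-19b-3p (Mir19b-1): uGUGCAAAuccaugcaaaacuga
mmu-miR-92a-3p (Mir92-1): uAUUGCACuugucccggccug
mmu-miR-25-3p (Mir25): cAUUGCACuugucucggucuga

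The miR-17 seed is carried by 4 members, 2 from each cluster. With positions counted from 1 at the 5′ end and miR-17-5p read first, miR-20a-5p differs by C1U and C12U, miR-106b-5p by C1U, U10G and G20A over 21 bases, and miR-93-5p by U10G, A11U, C12U and A13C. All of these lie outside the seed. miR-18a-5p differs from miR-17-5p at 6 of 23 bases, and 1 of them, A4G, lies in the seed. miR-19a-3p differs from miR-19b-3p by C11U alone. miR-25-3p differs from miR-92a-3p by U1C, C14U and C18U over 21 bases.

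The miR-17-92 hairpins lie at chr14:115043671-115044506 on the plus strand of mm10, a span of 836 bases, inside an exon of the long non-coding gene Mir17hg. The miR-106b-25 hairpins lie at chr5:138165321-138165818 on the minus strand, a span of 498 bases, inside Mcm7, which codes for a subunit of the DNA replication helicase. In the 2 annotated protein-coding transcripts of Mcm7 that span them, all 3 hairpins are intronic, and Mir93 and Mir25 also overlap an exon of 1 annotated transcript with a retained intron. No read was counted on the opposite strand of any member.

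Own-strand reads on microRNA genes numbered 5237062 in replicate 1 and 3026501 in replicate 2, and levels are given as reads per 1000000 of these (CPM). Reads that mapped to several places were counted for no gene and made up 41.1% of the whole library in replicate 1 and 39.9% in replicate 2. The heart was checked by the cardiomyocyte microRNAs Mir208a, Mir208b and Mir499, all 3 detected, with a sum of 5166 CPM in replicate 1 against 3415 in replicate 2. Intervals are exact 95% Clopper-Pearson intervals, and the limit given for a count of 0 is a floor of 3 reads, which is tighter than the upper end of such an interval. Both cover the counting error of reads only, and no spread between animals. The reads carry no molecular identifiers, so several can stem from 1 molecule and both limits can be too narrow. Counting error is meant in this sense below. An SD over 2 libraries comes from 1 difference, and nothing printed here measures more than the spread of these samples.

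Together the 9 genes took 1.25% of counted reads in replicate 1 and 1.37% in replicate 2. At least 10 reads in both libraries, the threshold for detection, were reached by 7 of the 9, against 335 of all 2202 genes. The members not detected were Mir19a and Mir19b-1. The 3 genes of miR-106b-25 had more reads than the 6 of miR-17-92 in both libraries, counting uniquely mapped reads only, a limit that bears on Mir19b-1 and Mir92-1, whose mature arms recur in other hairpins. They summed to 7793 CPM (7718 to 7869) in replicate 1 and 7990 CPM (7890 to 8091) in replicate 2. The miR-17-92 genes summed to 4692 CPM (4634 to 4751) in replicate 1 and 5744 CPM (5659 to 5829) in replicate 2. The ratio of miR-106b-25 to miR-17-92 was thus 1.66 in replicate 1 and 1.39 in replicate 2.

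In the miR-106b-25 cluster the middle hairpin led. Mir93, whose arm carries the miR-17 seed, had 31074 reads (5933 CPM) in replicate 1 and 20015 reads (6613 CPM) in replicate 2, or 6273 ± 481 CPM (SD, n = 2), rank 22 of all genes. It was the highest of the 9 genes in both libraries. Mir106b, the first hairpin, had 7356 reads (1405 CPM) in replicate 1 and 2938 reads (971 CPM) in replicate 2. Mir25, the last hairpin and a repressor of the cardiac calcium pump gene Atp2a2, had 2384 reads (455 CPM) in replicate 1 and 1228 reads (406 CPM) in replicate 2. Mir93 took 76.1% of the cluster's reads in replicate 1 and 82.8% in replicate 2, and Mir25 took 5.84% and 5.08% in the same order of libraries.

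In the miR-17-92 cluster the first hairpin led in uniquely mapped reads, and the hairpins did not follow their order along the transcript. Mir17 had 11982 reads (2288 CPM) in replicate 1 and 9968 reads (3294 CPM) in replicate 2, or 2791 ± 711 CPM, rank 44. Mir20a, the fourth hairpin, had 4337 reads (828 CPM) in replicate 1 and 3780 reads (1249 CPM) in replicate 2. Mir92-1, the last hairpin, whose mature miR-92a restrains vessel growth in endothelium, had 7377 reads (1409 CPM) in replicate 1 and 3190 reads (1054 CPM) in replicate 2. Mir18, which lies between Mir17 and Mir19a and represses the matrix gene Ccn2, had 873 reads (167 CPM) in replicate 1 and 440 reads (145 CPM) in replicate 2. Levels of the detected members of this transcript therefore spanned from 156 CPM for Mir18 to 2791 CPM for Mir17 as means over both libraries.

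The miR-19 hairpins had nearly no uniquely mapped reads. Mir19a had 4 reads in replicate 1 and 0 in replicate 2, where the floor of 3 reads is 0.991 CPM. Mir19b-1 had 1 read in replicate 1 and 5 in replicate 2. Within replicate 1, Mir17 stood 2996-fold above Mir19a with a counting interval from 1170 to 10996. Within replicate 2, taking the floor of 3 reads for Mir19a gave a ratio of 3323. The lower end of the counting interval there was 2702. The flanking hairpins Mir18 and Mir20a, cut from the same transcript, had at least 440 reads in each library.

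**Figure D1:**
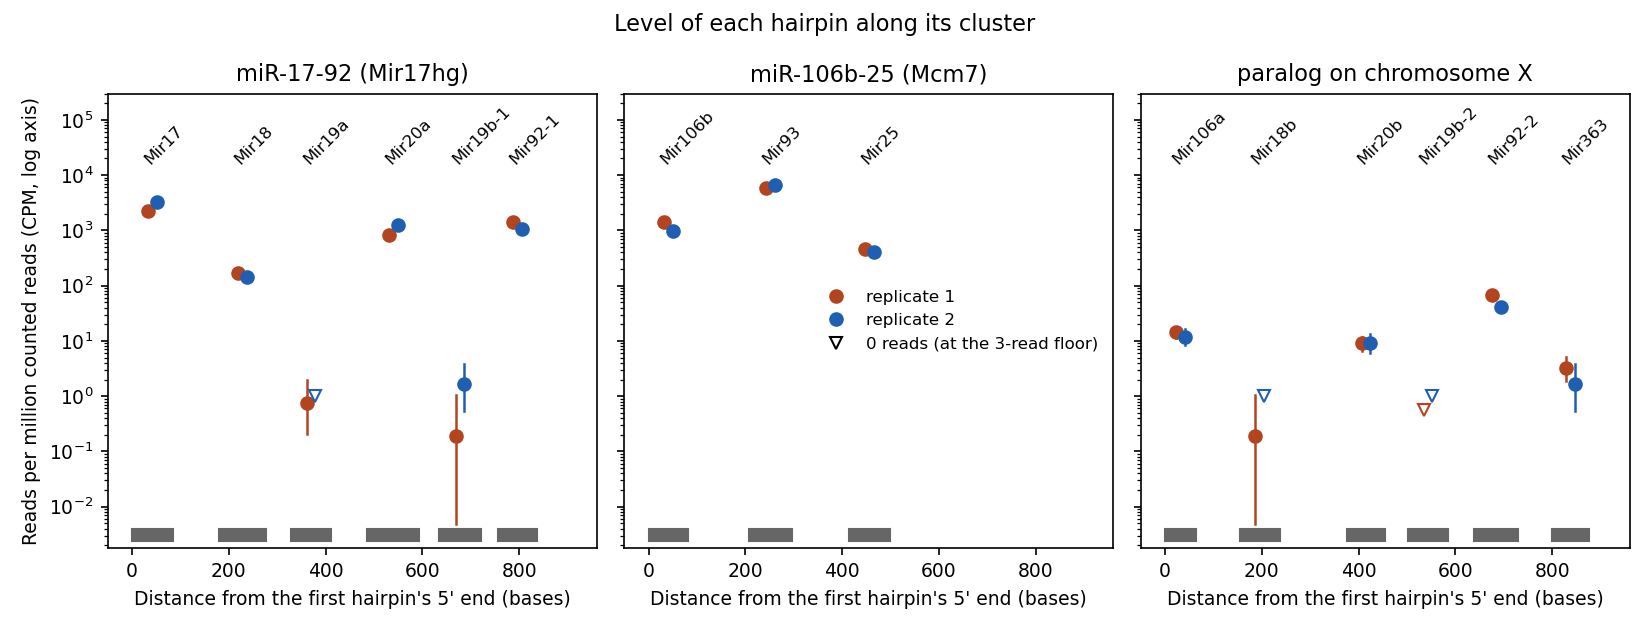
Level of each hairpin in CPM on a log axis against its distance from the 5′ end of the first hairpin, in replicate 1 and replicate 2, for miR-17-92, miR-106b-25 and the paralog cluster on chromosome X. Lines are exact 95% counting intervals, grey boxes are hairpins, and open triangles mark 0 reads at the floor of 3 reads. Mir19a and Mir19b-1 lie at or below 1.65 CPM, and the other 7 members at 145 CPM or above.

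Ordered by mean CPM, the members ran Mir93, Mir17, Mir92-1, Mir106b, Mir20a, Mir25, Mir18, Mir19b-1 and Mir19a. Neighbours in this order had separate ranges over the 2 libraries in 5 of 8 pairs. Mir92-1 (1231 ± 251 CPM), Mir106b (1188 ± 307 CPM) and Mir20a (1039 ± 298 CPM) overlapped in range, as did Mir19b-1 and Mir19a. Mir92-1 stood above Mir106b in both libraries, with 7377 against 7356 reads in replicate 1, where their counting intervals overlap, and 3190 against 2938 in replicate 2. The order of Mir106b and Mir20a turned between the libraries. Among all other detected genes, those nearest to Mir93 in log2(CPM + 1) over the 2 libraries were Mir151 at a distance of 0.12, Mir30a at 0.34 and Mir335 at 0.38, and those nearest to Mir17 were Mir28a at 0.19, Mir320 at 0.36 and Mir107 at 0.53.

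A read can be counted for a gene only where its sequence is not found at another place, so the sharing of sequence among hairpins bears on these levels. The mature arms of Mir19b-1 and Mir92-1 are identical to those of Mir19b-2 and Mir92-2 on chromosome X, and these members alone share a stretch of 20 bases or more with another annotated hairpin. The 4 hairpins are printed from GENCODE M21 because they show that the whole active arm lies inside the shared stretch, which is in capitals.
Mir19b-1: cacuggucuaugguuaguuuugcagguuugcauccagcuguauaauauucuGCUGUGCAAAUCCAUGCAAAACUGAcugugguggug
Mir19b-2: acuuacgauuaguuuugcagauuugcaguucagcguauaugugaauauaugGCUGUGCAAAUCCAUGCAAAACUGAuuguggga
Mir92-1: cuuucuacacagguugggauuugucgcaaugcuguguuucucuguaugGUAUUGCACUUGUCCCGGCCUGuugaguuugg
Mir92-2: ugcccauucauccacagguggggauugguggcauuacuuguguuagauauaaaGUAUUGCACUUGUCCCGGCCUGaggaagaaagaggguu

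The shared stretch covers 25 bases in the miR-19b hairpins and 22 in the miR-92a hairpins, and in both it holds the whole mature arm. A read that lies wholly inside the stretch maps to more than 1 place and so falls among the uncounted reads. The levels of Mir19b-1 and Mir92-1 are therefore lower limits for their loci, if each counted read came from its own locus. That condition was not tested, and lower limit is used below in this sense. Which arm or which read ends gave the reads that were counted is not known. Mir92-1 still had 7377 reads in replicate 1 and 3190 in replicate 2. The mature arm of Mir19a was found in 1 annotated hairpin, none of its 63 windows of 20 bases recurred in another annotated hairpin, and its nearest relative, Mir19b-1, differs by 1 base. Only annotated hairpins were searched, and the part of reads with several mapping places in the low count of Mir19a was not tested. The other members shared at most 17 bases in a row with another annotated hairpin.

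Genes were grouped by the seed of the arm printed above, and all reads of a gene were summed, whichever arm they came from. Summed in this way over uniquely mapped reads, the miR-17 family held most of the members' reads. The sums of the miR-92 and miR-19 seeds are lower limits. Reads of Mir92-1 and Mir19b-1 that lie wholly inside the shared stretch were not counted. Its 4 members reached 10454 CPM in replicate 1 and 12127 CPM in replicate 2, of which Mir93 alone gave 56.8% and 54.5%. Of this sum, genes of the miR-106b-25 cluster gave 7338 CPM in replicate 1 and 7584 CPM in replicate 2. Those of the miR-17-92 cluster gave 3116 CPM and 4543 CPM in the same order. The miR-92 seed of Mir92-1 and Mir25 reached 1864 CPM in replicate 1 and 1460 CPM in replicate 2. Here the clusters ranked the other way, with Mir92-1 giving 75.6% of the members' reads in replicate 1 and 72.2% in replicate 2. The miR-18 seed, Mir18 alone, reached 167 and 145 CPM, and the miR-19 seed had 5 reads in each library.

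**Figure D2:**
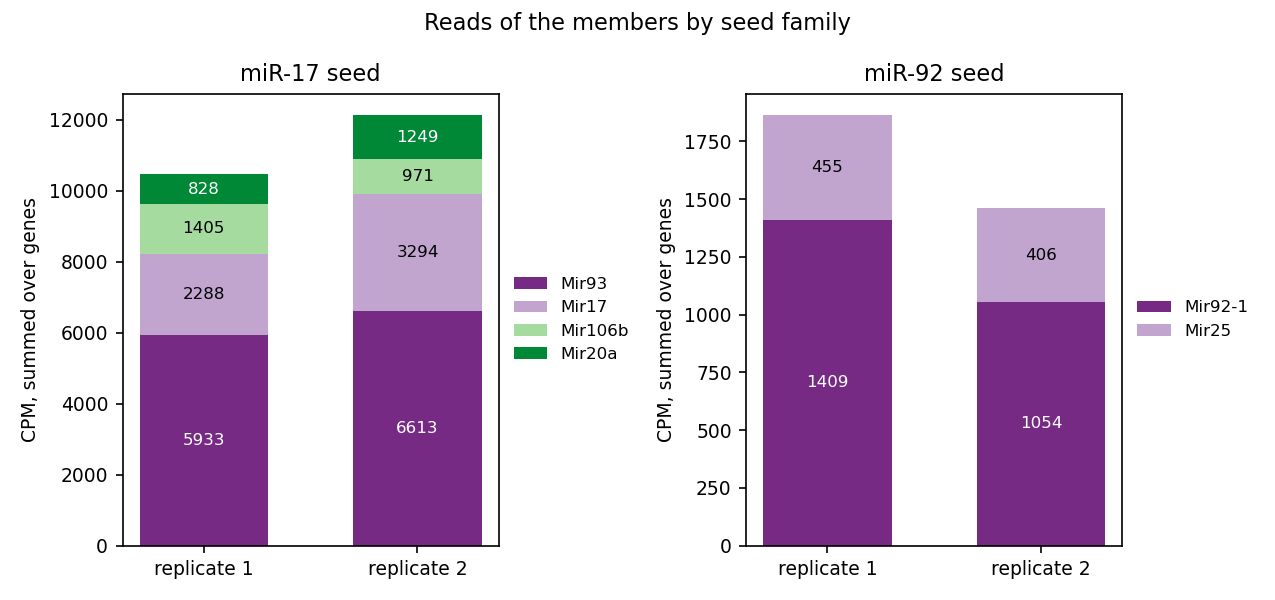
Summed CPM of the members that carry the miR-17 seed (left) and the miR-92 seed (right) in replicate 1 and replicate 2, stacked by gene with each gene's CPM printed. Mir93 is the largest block of the miR-17 seed in both libraries and Mir92-1 that of the miR-92 seed.

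The paralog cluster at chrX:52741693-52742567 holds Mir106a, Mir18b, Mir20b, Mir19b-2, Mir92-2 and Mir363, and it had few counted reads. The mature arms of Mir19b-2 and Mir92-2 are those shared with members, so their counts are lower limits too and the comparison holds for uniquely mapped reads. Its 6 genes summed to 498 reads (95.1 CPM) in replicate 1 and 192 reads (63.4 CPM) in replicate 2. The miR-17-92 genes had 49.3 times as many reads in replicate 1 and 90.5 times as many in replicate 2. Mir106a, whose arm differs from miR-17-5p by U10A alone, had 75 reads in replicate 1 and 36 in replicate 2. Mir20b, whose arm differs from miR-20a-5p by U1C and U10C, had 47 reads in replicate 1 and 28 in replicate 2. Most reads of the paralog cluster came from Mir92-2, with 358 in replicate 1 and 123 in replicate 2. Mir363 had 17 and 5 reads, Mir18b had 1 and 0, and Mir19b-2 had 0 in both.

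Reads were then summed over all annotated genes that have an arm with each seed, again whichever arm the reads came from. The members held nearly all reads of the genes with the miR-17 seed, 99.8% in replicate 1 and 99.8% in replicate 2. This count takes in 7 genes, of which Mir6383 had 0 reads in both. Of the uniquely mapped reads of the 7 genes with the miR-92 seed, the members held 88.5% in replicate 1 and 91.6% in replicate 2. The rest came mainly from Mir92b, with 643 reads in replicate 1 and 121 in replicate 2, and from Mir32, with 250 and 156. Mir367, a microRNA of pluripotent cells, had 0 reads in both.

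The libraries were then compared gene by gene, replicate 1 over replicate 2, by a binomial test (exact, two-sided) whose expected share came from TMM-scaled library sizes, with Benjamini-Hochberg adjustment over all 430 genes that had 10 or more reads in sum. It compares these libraries, not conditions, and allows for counting error only. Of the 7 tested members, 5 were called, with 2 higher and 3 lower in replicate 1, against 55.3% of all tested genes, 27.9% higher and 27.4% lower (59.3% at an unadjusted p under 0.05). Among the 226 genes whose mean reached 100 reads, as it did for each of the 7, 80.5% were called, so the members' count lies near the background. The members' median log2 difference was 0.03 and its median absolute size 0.29. These were -0.05 and 0.53 over all tested genes, and -0.05 and 0.40 over the 226 genes. Scaled by total counts instead, all 7 members were called, 4 higher and 3 lower, against 55.8% of all tested genes, with 33.5% of the tested genes higher in replicate 1.

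Within the miR-17-92 cluster the counted reads of the hairpins moved apart between the libraries. Mir20a was lower in replicate 1 by 1.66-fold (log2 -0.73, counting interval -0.79 to -0.66, adjusted p = 4.44e-110, binomial test with n = 1 library a side, exact). Mir17 was lower by 1.58-fold (log2 -0.66, interval -0.70 to -0.62). Mir92-1 was higher by 1.22-fold (log2 0.28, interval 0.22 to 0.34). Mir18 was not called (log2 0.06, interval -0.10 to 0.23).

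The ratio of Mir17 to Mir20a, whose arms differ by 2 bases, was 2.76 (2.67 to 2.86) in replicate 1 and 2.64 (2.54 to 2.74) in replicate 2. These counting intervals overlap. The ratio of Mir17 to Mir92-1 was 1.62 (1.58 to 1.67) in replicate 1 and 3.12 (3.00 to 3.25) in replicate 2. In uniquely mapped reads this ratio thus differed between the libraries beyond counting error. The count of Mir92-1 is a lower limit, and the part of its uncounted reads in this difference was not tested. In the same reads Mir92-1 stood above Mir20a in replicate 1, with a ratio of Mir20a to Mir92-1 of 0.588. It stood below Mir20a in replicate 2, with a ratio of 1.18, where a lower limit cannot settle the order of the loci.

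In the miR-106b-25 cluster, Mir106b was higher in replicate 1 by 1.32-fold (log2 0.40, interval 0.34 to 0.46), Mir93 was lower by 1.22-fold (log2 -0.29, interval -0.32 to -0.27) and Mir25 was not called (log2 0.03, interval -0.07 to 0.13). The ratio of Mir93 to Mir106b was 4.22 (4.12 to 4.33) in replicate 1 and 6.81 (6.55 to 7.08) in replicate 2. Beyond counting error, both clusters thus held a hairpin that was lower in replicate 1 and one that was higher. In miR-17-92 the higher one was Mir92-1, whose count is a lower limit. The test carries no spread between animals, and the part of the host transcripts in these differences was not tested. Of the 4 members with the miR-17 seed, Mir17, Mir20a and Mir93 were lower in replicate 1 and Mir106b was higher.

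**Figure D3:**
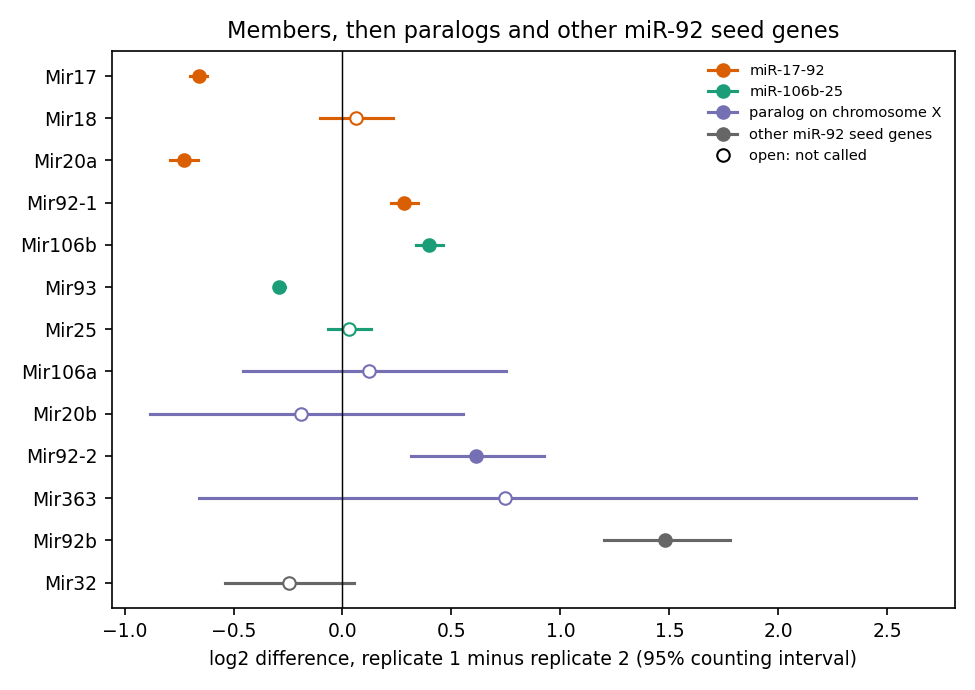
Log2 difference of replicate 1 minus replicate 2 after TMM scaling for the 7 tested members, the tested paralogs on chromosome X and the tested other genes with the miR-92 seed, with 95% counting intervals and filled points where the binomial test called the gene. Mir17 and Mir20a lie lowest, at -0.66 and -0.73, and Mir92b lies highest at 1.48.

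Of the 6 tested genes outside the clusters, Mir92-2 was higher in replicate 1 by 1.53-fold (log2 0.61, interval 0.32 to 0.92) and Mir92b by 2.79-fold (log2 1.48). Mir106a, Mir20b, Mir363 and Mir32 were not called. The counting interval ran from -0.46 to 0.75 for Mir106a, from -0.88 to 0.55 for Mir20b, from -0.66 to 2.63 for Mir363 and from -0.54 to 0.05 for Mir32, which leaves differences of either sign possible for each.

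**Figure D4:**
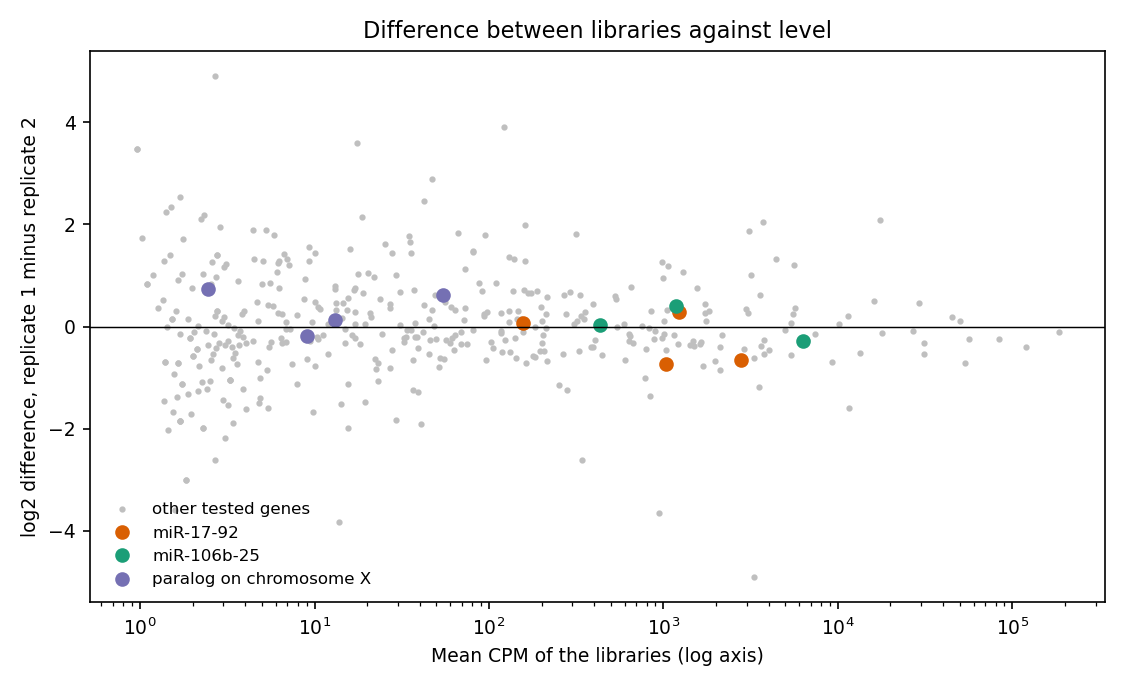
Log2 difference of replicate 1 minus replicate 2 against mean CPM on a log axis for all 430 tested genes, with the tested genes of both clusters and of the paralog cluster in colour. The members lie between -0.73 and 0.40, inside the range of all tested genes from -4.91 to 4.91.

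The binomial test carries no spread between animals. The biological coefficient of variation that edgeR estimated over the 430 genes, from these same libraries, was 0.424. When the coefficient was set to 0.1 in the exact test of edgeR, Mir17 (adjusted p = 0.00816) and Mir20a (adjusted p = 0.00342) alone were called among the members, against 28.6% of all tested genes. At 0.4, close to the estimate, 0 members were called, against 1.16% of all tested genes. The estimate takes the whole difference between these libraries as spread. Few calls at 0.4 were therefore largely fixed in advance, and no conclusion is drawn from them.

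Markers of other cells also differed between the libraries. The summed level of the erythroid markers Mir451a, Mir144 and Mir486 was 995 CPM in replicate 1 and 7382 CPM in replicate 2, and all 3 were detected. They did not move together: Mir451a was lower in replicate 1 by 30.0-fold and Mir144 by 6.15-fold, while Mir486 was higher by 1.46-fold. The endothelial Mir126a was lower by 1.64-fold, and the smooth muscle markers Mir143 and Mir145a gave 30333 CPM together in replicate 1 against 33879 in replicate 2. The 5 leukocyte markers, all detected, gave 3855 CPM together in replicate 1 against 4154 in replicate 2, with Mir155 lower and Mir142, Mir150, Mir223 and Mir146 higher. Within the erythroid, smooth muscle and leukocyte lists markers thus differed in both directions, as the members did. The cardiomyocyte markers did not. Mir208a (log2 0.95) and Mir499 (log2 0.35) were higher in replicate 1, and Mir208b (log2 0.06) was not called. The part of any of these cells in the members' differences was not tested.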

How the data were processed

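MicroRNA reads from 2 heart libraries of 1 group were used. The deposited tables hold whole-number read counts per microRNA gene, not normalized, and per the readme deposited with them they use mm10 and GENCODE M21. Which aligner and which counting program made them is not stated in the labels or readme. The own-strand column was used, and 4 summary lines stayed out of totals and tests.

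CPM are counts per 1000000 own-strand reads on genes. TMM factors came from edgeR 4.0.16 (R 4.3.3) over genes with 10 or more reads in sum, which shifted log2 differences by -0.13 against scaling by totals. Binomial p-values doubled the smaller tail, the threshold was an adjusted p of 0.05, and 0.5 reads were added for log2 differences. The test was also run on simulated counts with Poisson error only and no spread between animals. That is the error it assumes, so no conclusion on these libraries is drawn from that run. DESeq2 1.42.0 size factors, total counts and other filters were alternatives. The rest was done in Python 3.11.15 (scipy 1.17.1, numpy 2.4.6, pandas 2.3.3), with plots by matplotlib 3.10.9. Sequences came from RefSeq (GRCm38.p6) and GENCODE M21 transcripts, and the genome itself was not searched for copies.

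Named were all 9 members, the 6 paralogs on chromosome X, Mir92b, Mir32 and Mir367, cell type markers, and the 3 genes nearest to the top member of each cluster. Mir6383 was named after its values were seen. The members and lists were chosen with earlier results of these data known.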

Additional observations from a re-analysis of the deposited data

How the results depend on the processing

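Of the 7 tested members, 5 were called between libraries, and the count stayed within 1.5 times this under DESeq2 size factors, total counts, both other filters, a pseudocount of 10, unstranded reads and TMM over all genes (added after seeing the data). It was 2 with edgeR's exact test at a coefficient of variation of 0.1, against 28.6% of all tested genes, and 0 at 0.4, against 1.16%. Of all tested genes, 55.3% were called in the main test and with the pseudocount of 10. The share was 55.8% with DESeq2 size factors, total counts or TMM over all genes, and 53.6% with unstranded reads. Without a filter it was 32.1%, and at a mean of at least 100 reads, adjusted over those genes alone, 82.3%. No member changed sign under these settings. With total counts Mir18 (log2 0.20) and Mir25 (log2 0.17) were also called higher in replicate 1, which gave 4 higher and 3 lower. The same calls were made with TMM over all genes. DESeq2 size factors added Mir25 alone (log2 0.12), which gave 3 higher and 3 lower. With unstranded reads the members' read counts were identical and the total smaller, so summed levels moved to 10799 CPM for miR-106b-25, 7149 CPM for miR-17-92, 15463 CPM for the miR-17 seed, 213 CPM for miR-18 and 2270 CPM for miR-92. Over all uniquely mapped reads miR-106b-25 moved to 7154 CPM. Without genes that share 20 bases, miR-17-92 fell to 3986 CPM, the miR-92 seed to 430.5 CPM and the miR-19 seed to 0.382 CPM. Leaving out either replicate leaves the other library's own value, which with 2 libraries is always within 1 SD of the mean and says nothing of stability. No paired analysis was possible because there was 1 group. Few counted reads limit what can be said of the miR-19 genes and the paralogs. Reads inside a shared stretch went uncounted for Mir19b-1, Mir19b-2 and Mir92-2, and the part of depth was not tested.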

Other observations

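The length of the mature arm was set beside the difference between libraries after the members' values were seen. The active arms of Mir17, Mir20a and Mir93, all lower in replicate 1, have 23 bases, those of Mir92-1 and Mir106b, both higher, have 21, and that of Mir25, not called, has 22. Mir18, also not called, has an arm of 23 bases. Among the 103 other genes averaging 100 reads or more whose annotated arms are all of 1 length, the median log2 difference was 0.20 over 15 genes of 21 bases, -0.03 over 81 genes of 22 bases and -0.33 over 5 genes of 23 bases. The single gene of 19 bases was at 0.42 and the single gene of 24 bases, against this order, at 1.65. All bins but that of 22 bases are thin, and Pearson's r across all 103 genes, which are not independent replicates, was 0.0187. The members were placed by the length of 1 arm each, without the filter that the 103 genes passed. Reads of exactly the 21 bases of the Mir92-1 arm lie inside its shared stretch and were not counted. The part of arm length in the members' differences was not tested.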
